A study of Mus musculus with 6 samples.

Results

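The genes described here are 10 genes of the insulin-like growth factor (IGF) axis: the ligand Igf1, its receptor Igf1r, the adaptors Irs1 and Irs2, and the binding proteins Igfbp2, Igfbp3, Igfbp4, Igfbp5, Igfbp6 and Igfbp7. They were chosen by name from the list of annotated genes, with earlier results of these data known. All 10 of 10 were measured, out of 22180 genes with a probe set of their own. Each gene is given on the log2 scale of the deposited values, averaged over the probe sets annotated to that gene alone. The 10 genes had 11 such probe sets, because Irs1 had 2.

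RNA came from 6 cultures of C2C12, mouse myoblasts that proliferate while serum is plentiful and form multinucleated myotubes once it is reduced. Cells were kept either in growth medium, with 10% fetal bovine serum (FBS), or in that medium and then in 2% differentiation medium up to harvest on day 5. In each medium 1 culture was untreated, 1 received the inflammatory cytokine TNF-α at 50 ng/ml and 1 received BTZ at 10 nM. The treatment lasted 24 h in growth medium and ran from day 4 to harvest in differentiation medium. BTZ is written only as an abbreviation in the labels; it commonly denotes bortezomib, a proteasome inhibitor. Each of the 6 groups was 1 Affymetrix array, so a difference between 2 arrays has no replicate check, no error and no p-value.

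IGF1 is a secreted growth factor that muscle cells make for themselves and also receive from the blood. It binds the receptor tyrosine kinase IGF1R, which phosphorylates IRS1 and IRS2, and these recruit PI3 kinase and so activate Akt and mTOR. The IGF-binding proteins hold IGFs outside the cell and can block, store or deliver them, and the axis is known for driving both division and differentiation of myoblasts and for the growth of muscle fibres.

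Promoter sequences of all 10 genes were found in the RefSeq table of build GRCm38.p6, and 2 are shown because Igf1 and Igfbp5 had the widest ranges over the arrays, a choice made after their values were seen. Each line gives the 250 bases before the annotated gene start, 5′ to 3′ on the gene's strand. Capitals mark matches to CANNTG, the E-box that myogenic factors such as MyoD and myogenin are known to bind. The Igf1 window is chr10:87860861-87861110 on the plus strand and the Igfbp5 window is chr1:72874866-72875115 on the minus strand.
Igf1: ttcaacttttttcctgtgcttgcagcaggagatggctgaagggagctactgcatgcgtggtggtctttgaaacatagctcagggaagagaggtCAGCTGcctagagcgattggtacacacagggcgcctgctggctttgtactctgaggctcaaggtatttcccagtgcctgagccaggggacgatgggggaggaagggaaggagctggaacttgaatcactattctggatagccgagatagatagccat
Igfbp5: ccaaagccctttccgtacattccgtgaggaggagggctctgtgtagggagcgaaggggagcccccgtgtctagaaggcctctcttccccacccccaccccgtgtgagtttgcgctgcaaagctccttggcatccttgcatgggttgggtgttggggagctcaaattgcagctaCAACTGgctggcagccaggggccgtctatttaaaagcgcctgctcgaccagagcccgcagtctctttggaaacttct
The match began 157 bases before the start in Igf1 and 77 bases before it in Igfbp5. CANNTG reads the same pattern on both strands, and 66.2% of 32851 promoter windows of that length held at least 1 match, so a match describes these letters and no more. The pattern TATAAA, searched on both strands and held by 12.4% of all windows, matched in Igfbp4, 28 bases before the start, and in Igfbp6, 148 bases before it. No match to CANNTG was present in the windows of Igf1r and Igfbp7.

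The deposited values ran from 1.66 to 14.1, and the array medians lay between 5.01 and 5.11. The floor for a gene was the median of all values, 5.06, to be reached on at least 1 array, and 13652 genes reached it. The labels name myoblasts in every group. All 5 myoblast markers and all 8 myotube markers reached the floor, and the myotube markers averaged 5.79 in untreated growth medium and 10.83 in untreated differentiation medium. The myoblast markers averaged 8.62 and 9.41 on the same arrays, and of them Myf5 alone was lower in differentiation medium (-0.91). Of 14 markers of leukocytes, endothelium and adipocytes, 10 stayed under the floor on all 6 arrays; Cd68, Csf1r, Plin1 and Cidec reached it.

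Igf1 was higher in differentiation medium and lower with each treatment. Its log2 signal was 6.59 in untreated growth medium, 5.20 with TNF-α and 4.85 with BTZ, and in differentiation medium it was 9.56 untreated, 7.91 with TNF-α and 5.23 with BTZ. The untreated culture in differentiation medium stood highest. The lowest was BTZ in growth medium, under the floor, with TNF-α in growth medium and BTZ in differentiation medium close above it. Igf1 was 7.83-fold higher in untreated differentiation medium than in untreated growth medium, a log2 difference of 2.97. With TNF-α the log2 difference was -1.39 in growth medium and -1.65 in differentiation medium. With BTZ the difference was -4.32 in differentiation medium, which ranked 13 from the lowest among 13652 genes. In growth medium the BTZ difference was -1.74, with the treated array under the floor. Background may compress that value, which was not tested.

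Igf1r, the receptor, had a smaller range. Its log2 signal was 8.30, 8.50 and 7.63 in growth medium without treatment, with TNF-α and with BTZ, and 9.43, 9.57 and 8.25 in differentiation medium. Each culture in differentiation medium was above its counterpart in growth medium, by 1.13 untreated, 1.07 with TNF-α and 0.62 with BTZ. The TNF-α differences were 0.20 and 0.14, while BTZ went with -0.67 in growth medium and -1.18 in differentiation medium. The TNF-α differences of Igf1r were larger in size than those of 48.2% of genes in growth medium and 41.3% in differentiation medium, near the middle of all genes. With BTZ the receptor and the ligand were both lower on these arrays.

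Irs1, the adaptor that couples the receptor to PI3 kinase, was lower with both treatments in growth medium. It measured 8.09 untreated, 7.02 with TNF-α and 6.37 with BTZ there, and 7.63, 7.51 and 7.14 in differentiation medium. The differences were -1.07 and -1.71 in growth medium and -0.12 and -0.49 in differentiation medium, for TNF-α and BTZ in that order. Its 2 probe sets, at different brightness, had the same order of the 3 growth medium arrays: 6.55, 5.57 and 5.06 in one and 9.62, 8.46 and 7.68 in the other.

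Irs2, its close relative, stayed within 1.19 log2 units over the 6 arrays. It stood at 7.0, 6.53 and 7.72 in growth medium and 7.09, 7.23 and 7.31 in differentiation medium, untreated, with TNF-α and with BTZ. The highest and the lowest were both treated cultures in growth medium. In growth medium BTZ thus went with a higher Irs2 (0.71) and a lower Irs1. A further probe set annotated to Irs2 together with another gene was not used; it lay between 3.87 and 4.36 on all arrays, under the floor.

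**Figure D1:**
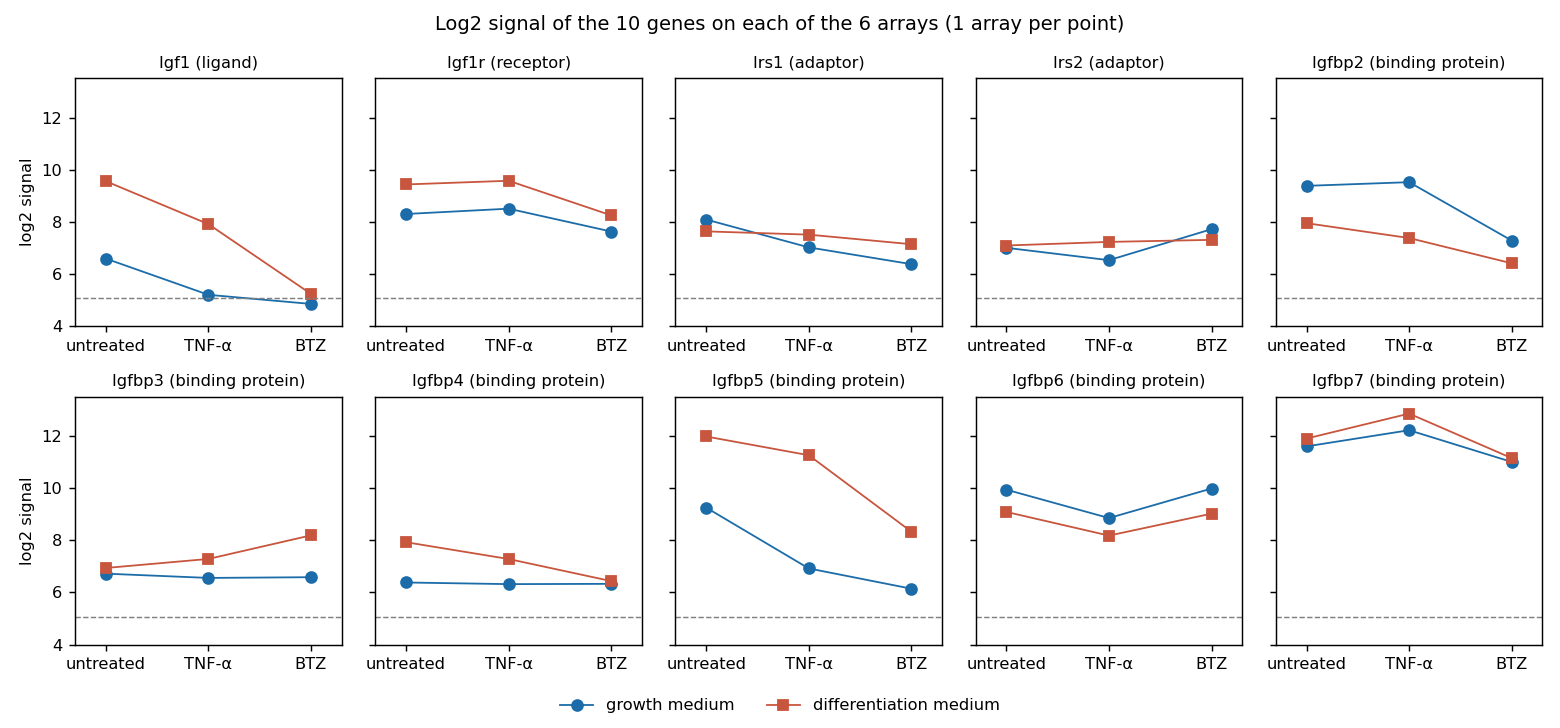
Log2 signal (vertical axis) of each of the 10 genes in untreated, TNF-α and BTZ cultures (horizontal axis), with circles for growth medium and squares for differentiation medium; each point is 1 array, lines join arrays of 1 medium and the dashed line is the floor of 5.06. Igf1 and Igfbp5 are highest in untreated differentiation medium, at 9.56 and 11.98, and lowest with BTZ in growth medium, at 4.85 and 6.14.

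Igfbp5, a binding protein that also attaches to the extracellular matrix and is known to be secreted by differentiating myoblasts, had the widest range of the 10 genes. It stood at 9.25 in untreated growth medium, 6.92 with TNF-α and 6.14 with BTZ. In differentiation medium it was 11.98 untreated, 11.26 with TNF-α and 8.33 with BTZ. The range of 5.84 log2 units, or 57.3-fold, was wider than that of 99.8% of genes above the floor. Each differentiation medium array was above its growth medium counterpart, by 2.73 untreated, 4.34 with TNF-α and 2.19 with BTZ. TNF-α went with a difference of -2.33 in growth medium, the eighth lowest of all genes, and -0.72 in differentiation medium. BTZ went with -3.11 and -3.65 in the 2 media.

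Igfbp2, which also carries an integrin-binding motif, ran the other way between media. The log2 signals were 9.38, 9.52 and 7.28 in growth medium and 7.95, 7.38 and 6.41 in differentiation medium, untreated, with TNF-α and with BTZ. All 3 differentiation medium arrays were below their growth medium counterparts, with differences of -1.43, -2.14 and -0.87 in that order. BTZ went with -2.10 in growth medium and -1.54 in differentiation medium. Igfbp2 and Igfbp5 are neighbours on mouse chromosome 1 with 0 annotated genes between them in GRCm38.p6, so adjacent genes of the family had opposite signs between media and the same sign with BTZ.

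Igfbp3, the main IGF carrier in blood, was level in growth medium, with log2 signals of 6.72 untreated, 6.55 with TNF-α and 6.58 with BTZ. In differentiation medium it was 6.94, 7.28 and 8.19. The BTZ culture in differentiation medium stood above the other 5, and its difference from the untreated one was 1.25. On the deposited scale no other member was at least 2-fold higher with a treatment.

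Igfbp4, which mostly restrains IGF action and is cut by the protease PAPP-A, was also level in growth medium, at 6.38, 6.32 and 6.33. In differentiation medium it was 7.93 untreated, 7.28 with TNF-α and 6.43 with BTZ. The untreated difference between media was 1.55, and with BTZ in both media it was 0.11. Within differentiation medium the TNF-α difference was -0.64 and the BTZ difference -1.49.

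Igfbp6, which prefers IGF2 over IGF1, was lower in differentiation medium and lower with TNF-α. Its log2 signal was 9.94, 8.85 and 9.99 in growth medium and 9.09, 8.18 and 9.02 in differentiation medium. TNF-α went with -1.09 and -0.91, while BTZ went with 0.04 and -0.07. Igfbp7, a relative with low affinity for IGFs, was 11.60, 12.22 and 11.01 in growth medium and 11.90, 12.86 and 11.15 in differentiation medium. It was higher with TNF-α in both media (0.62 and 0.96) and lower with BTZ (-0.60 and -0.75), but no difference of Igfbp7 reached 2-fold on the deposited scale.

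**Figure D2:**
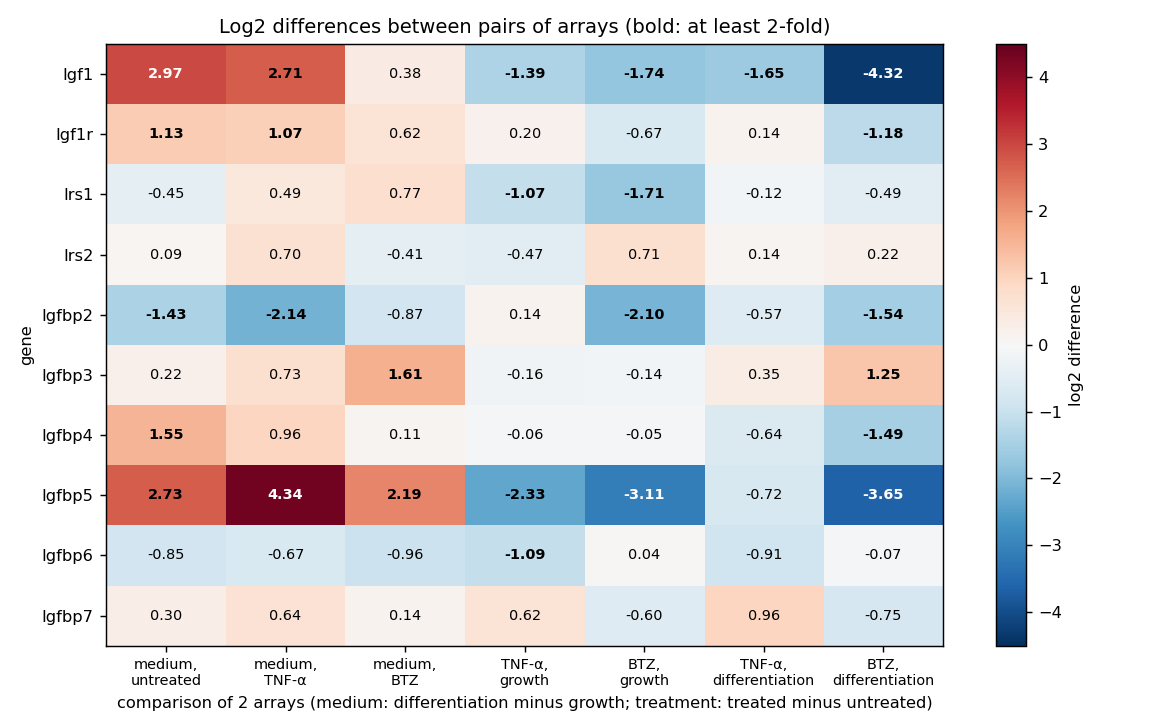
Log2 difference between 2 arrays for each gene (rows) in 7 comparisons (columns), as colour and as printed value, with bold for at least 2-fold; each medium column is differentiation minus growth and each treatment column is treated minus untreated. The strongest colours are Igfbp5 between media with TNF-α, at 4.34, and Igf1 with BTZ in differentiation medium, at -4.32.

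Between the untreated media, differentiation medium had 4 of the 10 genes at least 2-fold higher (Igf1, Igfbp5, Igfbp4 and Igf1r) and 1 lower (Igfbp2). Among all 13652 genes above the floor, the shares were 4.83% higher and 3.92% lower. With TNF-α in both media 3 were higher (Igfbp5, Igf1 and Igf1r) and 1 lower (Igfbp2), against 5.85% and 4.85% of all genes. With BTZ in both media 2 were higher (Igfbp5 and Igfbp3) and 0 lower, against 1.54% and 2.13%. The median difference of the 10 genes was 0.26, 0.71 and 0.26 in these comparisons, and that of all genes was 0.01, 0.01 and -0.003 in the same order. The 7 comparisons share arrays, so their values are set side by side and are not independent. The 10 genes were chosen with earlier results of these data known, so setting their counts beside all genes is no independent test.

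TNF-α in growth medium left 0 members at least 2-fold higher and 4 lower (Igfbp5, Igf1, Igfbp6 and Irs1), while 0.982% of all genes were higher and 1.02% lower. In differentiation medium 0 were higher and 1 lower (Igf1), against 2.01% and 0.879%. The median of the 10 genes was -0.32 and -0.35 in the 2 media, beside 0.03 and 0.01 for all genes. Once all arrays were shifted to a common median, Igfbp7 also passed 2-fold, higher, in differentiation medium.

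BTZ in growth medium left 0 members higher and 4 lower (Igfbp5, Igfbp2, Igf1 and Irs1), against 4.99% and 6.16% of all genes. In differentiation medium 1 was higher (Igfbp3) and 5 lower (Igf1, Igfbp5, Igfbp2, Igfbp4 and Igf1r), against 6.05% and 8.91%. The medians were -0.63 and -0.97, beside 0.02 and 0.00 for all genes. Myotube markers were lower with BTZ in differentiation medium too: 7 of 8 were at least 2-fold lower, their median difference was -2.55, and their mean log2 signal was 10.83 untreated and 8.35 with BTZ. The myoblast markers averaged 9.41 and 7.99 on the same arrays. In growth medium they averaged 8.62 untreated and 7.47 with BTZ, 3 of 5 being past 2-fold, and their median difference was -1.13. With TNF-α they averaged 8.14 in growth medium and 8.63 in differentiation medium, with median differences of -0.54 and -0.92. Their part in the differences of the IGF genes was not tested, and in such bulk RNA fewer differentiated cells and less RNA per cell cannot be told apart.

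**Figure D3:**
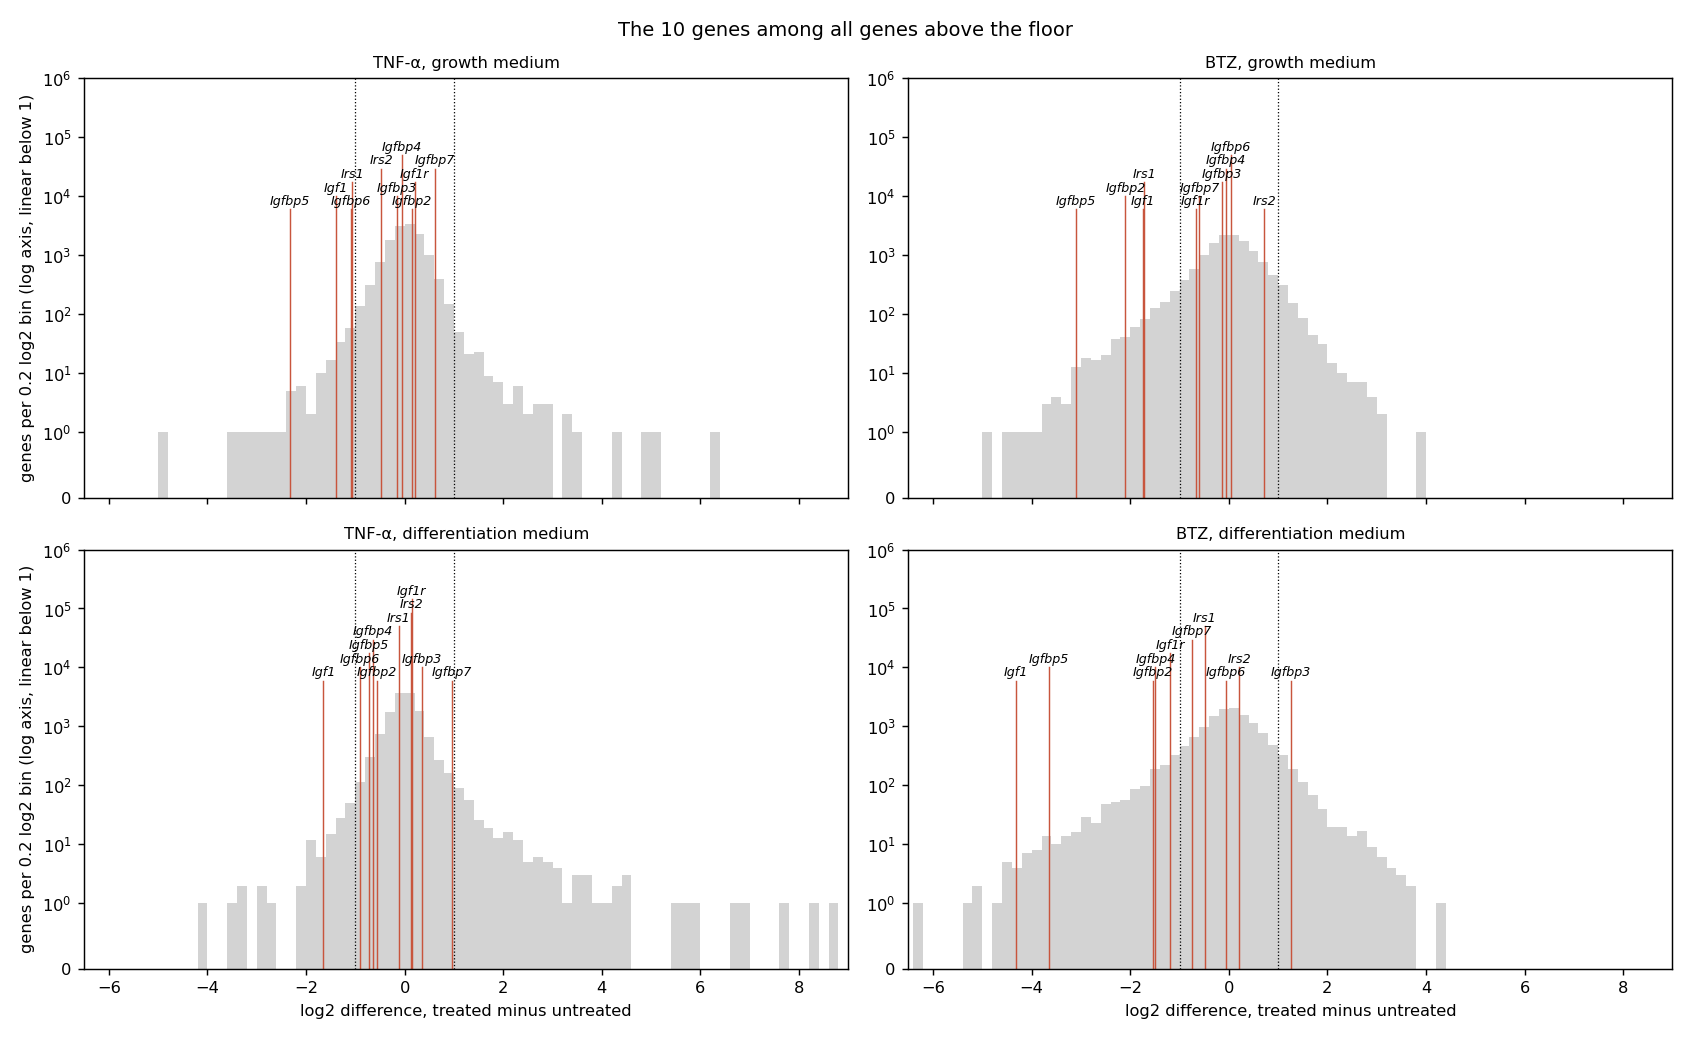
Number of genes (vertical log axis) by log2 difference, treated minus untreated (horizontal axis, bins of 0.2), for the 13652 genes above the floor in each treatment comparison; red lines mark the 10 IGF axis genes, their height only separates the names, and dotted lines mark 2-fold. Igf1 and Igfbp5 lie in the left tail with BTZ in differentiation medium, at -4.32 and -3.65, and Igfbp3 lies to the right at 1.25.

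Medium and treatment were fitted together as additive terms with limma on all 6 arrays, with Benjamini-Hochberg adjustment over the 13652 genes. A treatment effect is then an average over the media, and a medium effect an average over the treatments. A call therefore does not show that an effect held in each of them. The fit leaves 2 residual degrees of freedom, and its error includes any change of a treatment's effect from one medium to the other. For the medium, 4 of 10 genes passed at an adjusted p of 0.05: Igfbp5 rose by 3.09 ± 0.40 (log2, SE; adjusted p = 0.020) and Igf1r by 0.94 ± 0.16 (adjusted p = 0.039) in differentiation medium. Igfbp2 fell by 1.48 ± 0.25 (adjusted p = 0.039) and Igfbp6 fell by 0.83 ± 0.14 (adjusted p = 0.036). The medium effect of Igf1 was 2.02 ± 0.50 with an adjusted p of 0.089 by limma, and its residual SD of 1.01 was the widest of the 10. Of all genes, 4.03% passed for the medium.

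For BTZ, 5 of 10 genes passed the same limma test, all lower, against 14.2% of all genes in either direction. Igfbp5 fell by 3.38 ± 0.49 (adjusted p = 0.017), Igf1 fell by 3.03 ± 0.61 (adjusted p = 0.031), and Igfbp2 fell by 1.82 ± 0.31 (adjusted p = 0.023). Igf1r fell by 0.93 ± 0.20 (adjusted p = 0.035) and Igfbp7 fell by 0.67 ± 0.15 (adjusted p = 0.042). Irs1 had an effect of -1.10 ± 0.31 with an adjusted p of 0.071. For TNF-α 0 of 10 passed in limma, beside 0.0952% of all genes. An unadjusted p under 0.05 was held by 4 (Igfbp6, Igfbp7, Igfbp5 and Igf1), beside 6.56% of all genes. The nearest was Igfbp6, with -0.999 ± 0.17 and an adjusted p of 0.24.

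These calls depend on single arrays. The numbers of all genes that passed moved too, and are set beside those of the 10 genes. Without either untreated array 0 of the 10 genes passed limma for the medium or for BTZ, where 1 and 0 of all 13652 genes passed; 10.8% of all genes for the medium, and 17.3% or 16.2% for BTZ, still had an unadjusted p under 0.05. Without either TNF-α array Igfbp5 alone passed for the medium, beside 0.813% or 0.842% of all genes, and Igf1, Igfbp2 and Igfbp5 for BTZ, beside 9.21% or 9.62%. Without either BTZ array 7 passed for the medium, where 23.9% of all genes did. In those fits Igf1, Igfbp6 and Igfbp7 passed for TNF-α, beside 1.64% or 1.55% of all genes, and 7 members passed for BTZ, beside 28.3% or 19.3%. Between the fits without a BTZ array the members that passed for BTZ were not all the same, and not all were lower. In each pair of shares the growth medium array was the one left out first. Where a BTZ array was left out, the BTZ effect rests on 1 BTZ array, and likewise for TNF-α. Over the 6 fits that each left out 1 array, the effect of BTZ on Igfbp5 ran from -4.05 to -2.71, that of BTZ on Igf1 from -4.26 to -1.80 and that of the medium on Igfbp5 from 2.46 to 3.54.

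**Figure D4:**
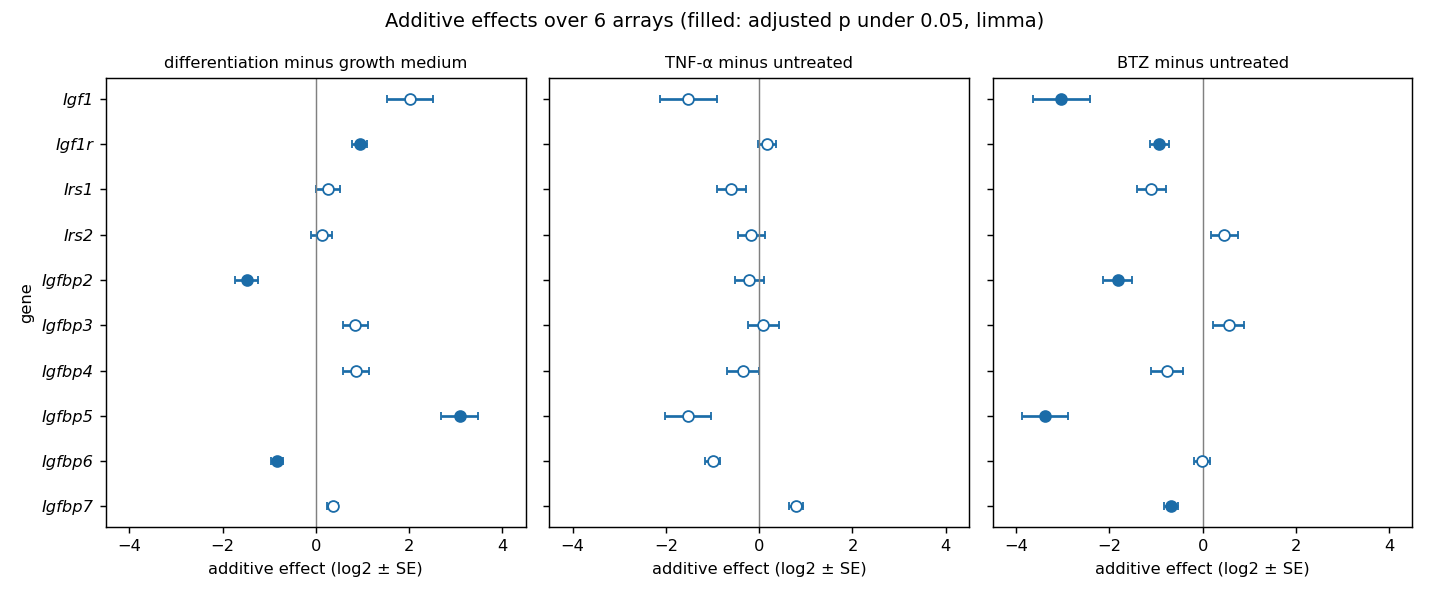
Additive effect of medium, TNF-α and BTZ (horizontal axis, log2, bars are ± SE) for each gene (vertical axis), from limma on 6 arrays, with filled points where the adjusted p is under 0.05. Filled points number 4 for the medium, 0 for TNF-α and 5 for BTZ.

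The size of a treatment difference in the 2 media was compared as a difference of differences over 4 arrays, without a test. For Igf1 the BTZ difference was more negative in differentiation medium by -2.59, a gap larger in size than that of 99.6% of genes. Its BTZ array in growth medium was under the floor, so the growth medium difference may be compressed, which was not tested. For Igfbp5 the TNF-α difference was less negative in differentiation medium by 1.61, larger in size than for 99.4% of genes. Igfbp4 and Igfbp3 differed between media with BTZ by -1.44 and 1.39: both were near 0 in growth medium, and in differentiation medium Igfbp4 was lower and Igfbp3 higher. For Irs1 the gap was 0.94 with TNF-α and 1.22 with BTZ, the growth medium difference being the more negative. For Igfbp6 with BTZ the gap was -0.11.

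Other genes of the pathway came from 7 lists of 81 genes, also chosen with earlier results of these data known. Of the 81, 74 were measured and 64 reached the floor. Between untreated media differentiation medium had 12 of the 64 higher by 2-fold or more and 1 lower, beside 4.83% and 3.92% of all genes. The median difference was 0.28, beside 0.01 for all genes. BTZ went with 3 higher and 6 lower in growth medium, beside 4.99% and 6.16% of all genes, and with 2 higher and 8 lower in differentiation medium, beside 6.05% and 8.91%. TNF-α went with 1 higher and 2 lower in growth medium, beside 0.982% and 1.02% of all genes. In differentiation medium it went with 0 higher and 1 lower, beside 2.01% and 0.879%. In the additive limma fit 3 of the 64 rose with the medium and 0 fell, beside 4.03% of all genes in either direction. With BTZ 6 rose and 4 fell, beside 14.2%. For TNF-α 0 passed, where 5 had an unadjusted p under 0.05, beside 6.56% of all genes. The counts of calls for the medium and BTZ were near the shares of all genes. Without either untreated array 0 of the 64 passed for the medium or for BTZ, so each call named from these lists was lost there. Leaving out a TNF-α or a BTZ array also changed the counts for the medium and BTZ, as it did for all genes. Such a fit keeps 1 array of that treatment.

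Among ligands and receptors, Igf2, the second IGF ligand, was 5.63 in untreated growth medium and 7.29 in untreated differentiation medium, and rose with the medium by 1.33 ± 0.24 in limma (adjusted p = 0.043). Igf2 was 6.64 with BTZ in differentiation medium, so its difference there was -0.65 beside the -4.32 of Igf1. Igf2r, which clears IGF2 from the cell surface, was 1.32 higher in untreated differentiation medium and 1.18 higher with BTZ in growth medium. It did not pass the additive test at the main floor. With the floor at the 75th percentile Igf2r passed for the medium and Igf2 did not. The insulin receptor Insr lay between 7.40 and 8.54 on all arrays. Of 7 proteases of binding proteins and their inhibitors 1 passed for BTZ, near the share of 14.2% of all genes. It was Htra3, a secreted serine protease with an IGFBP-like domain, which fell by 1.88 ± 0.32 (adjusted p = 0.023 in limma). Pappa, the protease that cuts IGFBP4, ran from 5.80 to 6.27, and its relative Pappa2 was 1.49 higher in untreated differentiation medium. The growth medium array of Pappa2 and the BTZ arrays of Htra3 were under the floor, so these differences may be compressed.

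Downstream, 2 of 19 adaptor and PI3 kinase-Akt genes fell with BTZ in limma, no larger a share than the 14.2% of all genes, both encoding regulatory subunits of PI3 kinase. The effect was -1.06 ± 0.24 for Pik3r1 (adjusted p = 0.042) and -0.98 ± 0.20 for Pik3r3 (adjusted p = 0.033). Of 17 mTOR and translation genes 5 rose with BTZ and 1 fell. Of all 13652 genes 998 rose and 935 fell, together 14.2%. The stress-induced mTOR inhibitor Sesn2 rose by 2.41 ± 0.19 (adjusted p = 0.0093) and Deptor, a protein that binds and inhibits mTOR, fell by 2.55 ± 0.25 (adjusted p = 0.010), both in limma. These 2 passed under the other scalings, floors and probe set rule, but not without either untreated array. Some of the other calls in this list were lost under another scaling or with no floor. Deptor was 8.43, 7.56 and 6.14 in growth medium and 10.09, 9.60 and 7.27 in differentiation medium, untreated, with TNF-α and with BTZ. Its highest and lowest arrays were those of Igf1 and Igfbp5. Of 9 FoxO factors and FoxO-linked genes 1 passed for BTZ, no larger a share than the 14.2% of all genes. It was the ubiquitin ligase Fbxo30, named after its value was seen. The kinase Pdk4 had its largest difference between media with TNF-α, at -1.87, and Fbxo32 with BTZ in differentiation medium, at -1.90. Among 6 matricellular genes with an IGFBP domain Ccn5 differed by -2.91 and Ccn3 by -1.31 with BTZ in differentiation medium, and neither passed for BTZ. Ccn3 was under the floor on that BTZ array, at 4.70, so its difference may be compressed. Igf2bp3, which binds IGF2 messenger RNA, stayed between 5.37 and 5.59.

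**Figure D5:**
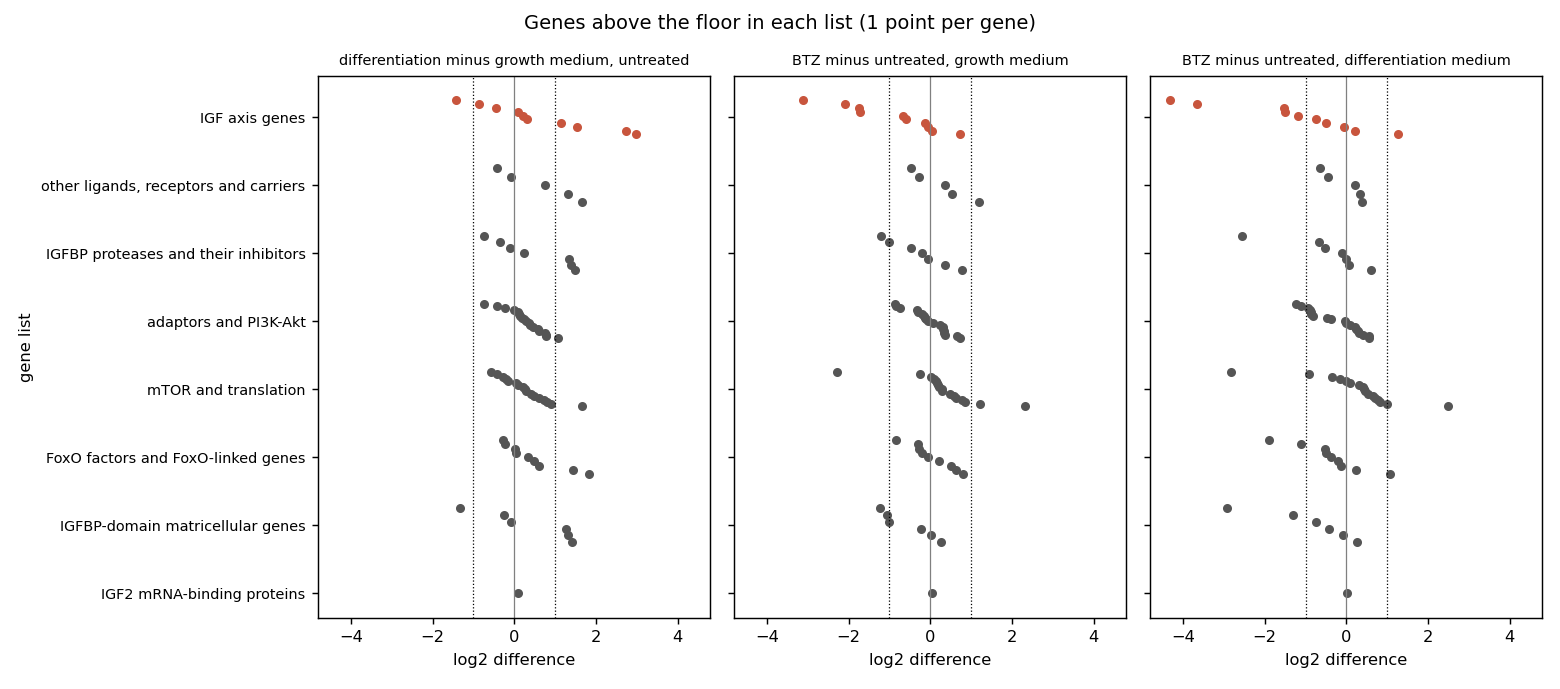
Log2 difference (horizontal axis) of each gene above the floor, by gene list (vertical axis), between untreated media and with BTZ in each medium; each point is 1 gene, red points are the 10 IGF axis genes and dotted lines mark 2-fold. In differentiation medium with BTZ the points farthest left are Igf1 at -4.32, Igfbp5 at -3.65, Ccn5 at -2.91 and Deptor at -2.81.

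The genes most like 3 members over the 6 arrays were found by the root mean square difference between mean-centred log2 profiles, among 4726 other named genes with a range of at least 1 log2 unit. For Igf1 they were Tspan8, a tetraspanin, at 0.34, Lrp4, a receptor at the neuromuscular junction, at 0.34, and Chrdl1, an antagonist of bone morphogenetic proteins, at 0.37; the median over all genes searched was 1.77. For Igfbp5 they were the proteoglycan decorin (Dcn) at 0.48, Ccdc141 at 0.49 and the muscle caveolar protein Cavin4 at 0.57, with a median of 2.18. Decorin ran from 4.97 with BTZ in growth medium, under the floor, to 11.17 in untreated differentiation medium. For Igf1r they were Lrch1 and the membrane protein stomatin (Stom), both at 0.11, and Nptx1 at 0.11, with a median of 0.86. Between members, Igf1 and Igfbp5 differed by 0.72 and Igf1 and Igfbp2 by 2.02. The closest pair of members was Igf1r and Igfbp4, at 0.35, and the farthest was Igfbp2 and Igfbp5, at 2.49. Nptx1 was under the floor on 4 of the 6 arrays, Tspan8 on 3 and Chrdl1 on 1, so part of their likeness may rest on background values. With 6 arrays these are descriptions of the arrays, and a gene with a narrow range gives smaller values by construction.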

How the data were processed

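RNA of 6 C2C12 cultures, 1 array for each of 6 groups, was amplified by a whole-transcript kit and biotin-labelled, per the labels' protocols. The deposited values are taken to be log2 signals, since they run from 1.66 to 14.1; how the authors corrected, normalized and summarized them is not given in the sources used here. Of 41345 probe sets, 23521 named 1 gene, 1814 named several and 16010 had no gene named; the mean per gene gave 22180 genes. Genes had to reach the median of all values, 5.06, on at least 1 array. Differences of 2 arrays were counted at 2-fold. The additive fit used R 4.3.3 and limma 3.58.1, with a mean-variance trend in eBayes. Its code was run on simulated data with additive effects and independent noise. Those data hold no difference of effect between media, so the run does not cover that case. The number of arrays limits precision. Alternatives were other scalings, floors, probe set rules and leaving out each array. Beside the 10 genes, Igf2, Igf2r, Insr and Pappa, named genes were the 2 with the largest difference in each list and the 3 nearest profiles. Members and lists were chosen with earlier results of these data known.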

Additional observations from a re-analysis of the deposited data

Results flagged for a closer look

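The effect of the medium on Irs1 had opposite signs with and without treatment: it was -0.45 in untreated cultures, 0.49 with TNF-α and 0.77 with BTZ, so the gaps were 0.94 and 1.22 log2 units. The effect of the medium on Irs2 was 0.70 with TNF-α and -0.41 with BTZ, a gap of -1.11. These opposite signs, each at least 0.25 in size, are why the values are listed, and with 1 array a group the difference was not tested.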

How the results depend on the processing

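The counts of members past 2-fold stayed within 1.5 times their value in all 7 comparisons under the other floors, quantile normalization, the brightest probe set and 16 added to the linear value; with 16 added, Irs1 was no longer past 2-fold with TNF-α in growth medium. After a shift of all arrays to a common median, TNF-α in differentiation medium had 2 members past 2-fold in place of 1, because Igfbp7 joined; no other count changed under that shift. In the limma fit the other scalings, floors, probe set rule and eBayes without trend gave 4 members for the medium, 0 for TNF-α and between 4 and 6 for BTZ: Igfbp7 was not called with no floor or without the trend (adjusted p = 0.054 and 0.074), and Irs1 was called with the brightest probe set (adjusted p = 0.044). Leaving out 1 array at a time gave 0 to 7 members for the medium, 0 to 3 for TNF-α and 0 to 7 for BTZ; 1 residual degree of freedom remains in each of these fits, the counts went both up and down, and the cause was not tested. Among the 64 other pathway genes, BTZ calls numbered 10, beside 14.2% of all genes. With no floor they numbered 6 of 74, beside 6.74%, and with the floor at the 75th percentile 12 of 52, beside 25.6%. After the shift to a common median or without the trend they numbered 8, beside 13.8% or 13.2%. Quantile normalization gave 10, beside 13.9%, and the brightest probe set 11, beside 14.7%. No paired analysis was possible because each group has 1 array and all 6 carry the same replicate number. Values near the floor, such as Igf1 with BTZ in growth medium, may be limited by background, which was not measured.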
